A study of Mus musculus with 8 samples.

Results

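The genes described here encode the proteins of the cytosolic ribosome. They were taken by name from the array design, as every name that begins Rpl or Rps and goes on as a ribosomal protein symbol does, with the Rps6k kinases left out. That gave 92 of 34797 gene names and 197 of 55681 probes. Of the 92 names, 77 are canonical ribosomal proteins, with 3 of the stalk, 31 of the small subunit and 43 of the large subunit. The others are 8 paralogues, 6 names of pseudogenes and Rps19bp1, which encodes a protein that binds Rps19 and is not itself a ribosomal protein.

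RNA from 8 samples, 2 for each of 4 groups, was hybridised to one-colour Agilent arrays on 1 slide. All samples came from C57BL/6 mice without a transgene named in the labels. Passage-8 cells were descendants of sorted c-kit-positive, CD45-positive cells, taken at passage 8. CD45-negative cells were primary c-kit-positive cells without CD45, the phosphatase that marks blood cells, grown from explants of the left atrial appendage after digestion with 0.25% trypsin and 0.1% collagenase D. CD45-positive cells were primary c-kit-positive cells with CD45, from the same tissue after 0.05% trypsin and 0.1% collagenase D. Both of these and the mice behind the passage-8 cells were 8 to 12 weeks old. The control was left ventricular wall of mice aged 12 weeks. The strength of digestion and the sort gate cannot be told apart, and neither can cultured cells against tissue and the RNA reagent, which was a Roche column kit for cells and Tri-reagent for ventricle.

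A ribosome is built of RNA and of proteins that its cell makes in near equal numbers, and the 2 subunits are assembled in the nucleolus before export. The messages of these proteins belong to the class that starts with a run of pyrimidines (terminal oligopyrimidine, TOP), through which the kinase mTORC1 controls their translation. Growing cells make many ribosomes. Striated muscle is known to use a paralogue of 1 large-subunit protein, Rpl3l in place of Rpl3, and of 1 elongation factor, Eef1a2 in place of Eef1a1.

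The probe pair for Rpl3 and Rpl3l is shown because the members' largest contrast with ventricle rests on telling them apart. Both are printed 5′ to 3′ in build mm9. Capitals mark equal bases where the end of the Rpl3l probe overlaps the start of the Rpl3 probe; of the overlaps of at least 20 bases, this one had the largest share of equal bases, 20 of 27. Each probe crosses an intron, since its 60 bases span 284 bases of the genome for Rpl3 (chr15:79908489-79908772, minus strand) and 269 bases for Rpl3l (chr17:24872413-24872681, plus strand).
Rpl3: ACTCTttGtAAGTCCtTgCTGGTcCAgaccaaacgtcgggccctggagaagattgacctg
Rpl3l: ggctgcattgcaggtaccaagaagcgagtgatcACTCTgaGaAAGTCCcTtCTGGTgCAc

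A second pair is shown for Rps24, a small-subunit protein whose messages end in alternative exons. The first probe (chr14:25311190-25312666, mm9, plus strand) lies in coding sequence that 3 listed RefSeq transcripts hold. The second (chr14:25312695-25315015, mm9, plus strand) matched 1 transcript, and its first 54 bases are printed with the in-frame stop codon in capitals.
Rps24 coding: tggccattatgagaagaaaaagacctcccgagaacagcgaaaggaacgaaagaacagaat
Rps24 variant: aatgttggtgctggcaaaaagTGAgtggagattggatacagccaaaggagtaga

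RefSeq start sites (GRCm38.p6) were at hand for 57 canonical genes. A start was counted when the first transcribed base was C and each of the next 4 was C or T, read on the transcript's strand. This held for 13 of the 57, or 22.8%, against 813 of 27025 genes of the table, or 3.01%. A run that begins a few bases away from the annotated start was not counted. The 4 sites below belong to genes named in the results, and run from 20 bases before to 20 bases from the start, with the first 5 transcribed bases in capitals.
Rplp2: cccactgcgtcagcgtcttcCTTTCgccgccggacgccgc
Rps6: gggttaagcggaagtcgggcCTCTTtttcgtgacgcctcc
Rps18: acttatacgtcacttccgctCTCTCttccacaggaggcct
Rps27: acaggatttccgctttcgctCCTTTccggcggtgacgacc
They lie at chr7:141447631-141447670 (plus strand), chr4:86857348-86857387, chr17:33955646-33955685 and chr3:90213629-90213668 (the last 3 on the minus strand).

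Levels below are log2 of a probe's processed signal minus the array's 75th percentile, so a level of 1 is 2-fold the percentile, and a difference compares shares of the labelled RNA and not amounts per cell. The labels were checked first. Ptprc, which encodes CD45, had levels of -5.56 and -5.16 in passage-8 cells, -5.51 and -3.33 in CD45-negative cells, 2.04 and 1.94 in CD45-positive cells, against -2.32 and -2.88 in ventricle. Kit, the gene of the c-kit receptor that all sorted cells are labelled as carrying, was dim throughout. Its levels were -5.67 and -5.54 in passage-8 cells, -6.33 and -1.54 in CD45-negative cells, -3.57 and -3.32 in CD45-positive cells, against -1.46 and -2.47 in ventricle. The highest level was thus in ventricle, which was not sorted, and on CD45-negative replicate 1 Kit was not well above background. The 2 CD45-negative arrays differed most from each other. The summed signal of 13 macrophage genes, in multiples of the 75th percentile, was 7.26 and 7.17 in passage-8 cells, 4.49 and 49.4 in CD45-negative cells, 1346 and 1332 in CD45-positive cells, against 53.2 and 43.2 in ventricle. The same sum for 14 cardiomyocyte genes was 6944 and 6424 in ventricle and between 3.30 and 7.94 on every cell array.

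All 77 canonical genes were well above background on all 8 arrays. Their mean level was 7.63 ± 0.015 in passage-8 cells, 7.78 ± 0.24 in CD45-negative cells, 7.30 ± 0.052 in CD45-positive cells and 6.88 ± 0.025 in ventricle (SD, n = 2 each). By array the means were 7.62 and 7.64 in passage-8 cells, 7.95 and 7.61 in CD45-negative cells, 7.34 and 7.26 in CD45-positive cells, against 6.90 and 6.86 in ventricle. Ventricle was thus lowest on both arrays and CD45-positive cells next, while the passage-8 arrays lay within the range of the CD45-negative pair. The 77 genes held 6.93% and 6.99% of the summed gene signal in passage-8 cells, 7.32% and 6.48% in CD45-negative cells, 5.81% and 5.73% in CD45-positive cells, against 4.09% and 4.23% in ventricle. The summed signal of 15 proliferation genes was also lowest in ventricle, but among the cells it was highest in passage-8 cells. It was 189 and 186 in passage-8 cells, 160 and 118 in CD45-negative cells, 122 and 121 in CD45-positive cells, against 31.0 and 24.1 in ventricle. CD45-negative replicate 2 lay below both CD45-positive arrays. The part of proliferation in the results was not tested. In such bulk samples, fewer cells of a type and less RNA per cell cannot be told apart.

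**Figure D1:**
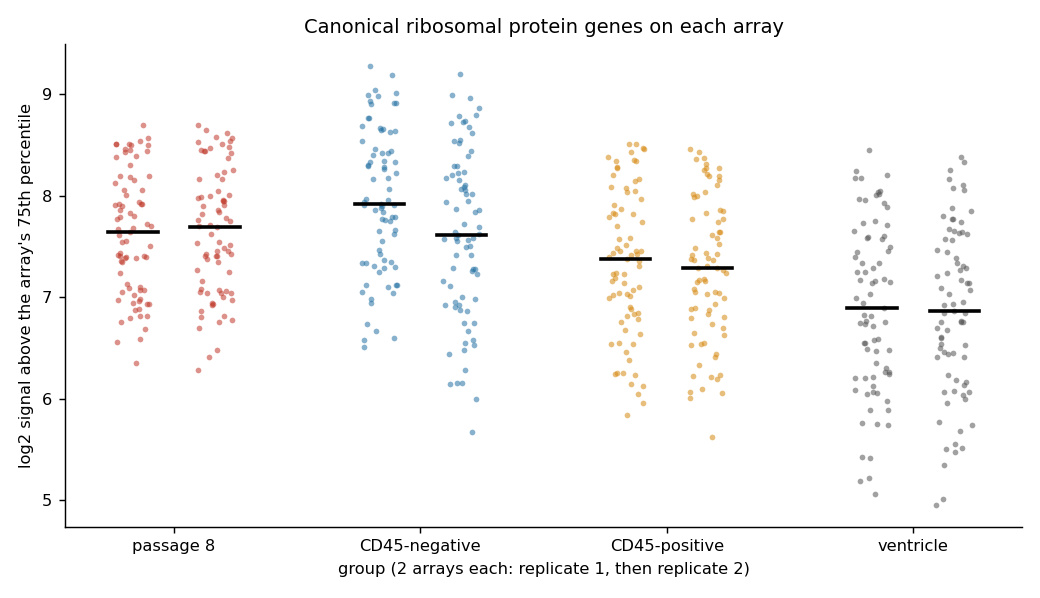
Level of each of the 77 canonical ribosomal protein genes (points) on each of the 8 arrays, in log2 units above the array's 75th percentile, with a bar at the median of each array. The ventricle arrays have the lowest bars, at 6.89 and 6.86, and CD45-negative replicate 1 the highest, at 7.92.

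Gene by gene, the group mean was lowest in ventricle for 73 of the 77, in CD45-positive cells for 3 and in CD45-negative cells for 1. That 1 was Rps2 on its brighter probe, while its other probe, described below, was lowest in ventricle. The group mean was highest in CD45-negative cells for 59, in passage-8 cells for 17 and in CD45-positive cells for 1. The full order CD45-negative, passage-8, CD45-positive, ventricle held for 53, and the share of all genes with it was not computed. The place of the first 2 groups depended on the setting. Passage-8 cells were above CD45-negative cells for 20 of 89 tested members, but for 53 with quantile normalization and 63 with the authors' table. Without CD45-negative replicate 1 they were above for 39 of 90. Both ventricle arrays lay below all 6 cell arrays for 66 of the 77, where the same held for 26.5% of 17974 genes well above background on all arrays. Among the 11 genes that did not separate so were Rplp0 and Rplp1 of the stalk, Rpsa, Rps2, Rps24 and Rps27 of the small subunit, and Rpl23a, Rpl29 and Rpl36 of the large subunit.

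Against ventricle, most ribosomal protein genes were called higher in CD45-negative cells and in passage-8 cells, and about as many as among all genes in CD45-positive cells. A gene is called below at a Benjamini-Hochberg adjusted p under 0.05 from limma, and is said to pass when its log2 difference is also at least 1 in size. In CD45-negative cells 75 of 91 tested members were called higher and 1 lower, where 28% of all genes were called higher and 24.6% lower; 34 passed higher and 1 lower, where 20.7% and 20% of all genes did. Their median log2 difference was 0.89, against 0.06 over all genes tested. In passage-8 cells 60 of 91 were called higher and 3 lower (27.3% and 23.6% of all genes). There 19 passed higher and 3 lower (20.8% and 19.5%), so that the share that passed higher was near the background. The median difference was 0.68, against 0.05 over all genes. In CD45-positive cells 24 of 91 were called higher and 1 lower (24.2% and 25.4% of all genes), so that the share called higher was near the background. There 6 passed higher and 1 lower (18.7% and 20.6%), and the median difference was 0.38, against -0.03 over all genes.

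The median stayed above 0 in these 3 comparisons under every alternative tried, but the counts leaned on single arrays. Shares of all genes at adjusted p alone were not computed for these alternatives. In CD45-negative cells the 34 that passed higher were 20 without CD45-negative replicate 1 and 57 without replicate 2, and 16 and 18 with quantile normalization and with the authors' value table. In passage-8 cells the 19 that passed higher were 21 and 32 with these same settings, so that the order of the CD45-negative and passage-8 counts turned. With quantile normalization 4473 of 22271 genes passed higher in CD45-negative cells and 5242 of 23976 in passage-8 cells. With the authors' table these were 4243 of 22256 and 4783 of 23962. Of these 4 member counts, only the 32 in passage-8 cells lay clearly over the share of all genes. The 60 called higher there were 15 and 17 without passage-8 replicate 1 or 2, and 44 and 35 without ventricle replicate 1 or 2. In CD45-positive cells the 24 called higher were 4 without either CD45-positive array, 13 and 12 without ventricle replicate 1 or 2, and 48 and 52 with quantile normalization and the authors' table.

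**Figure D2:**
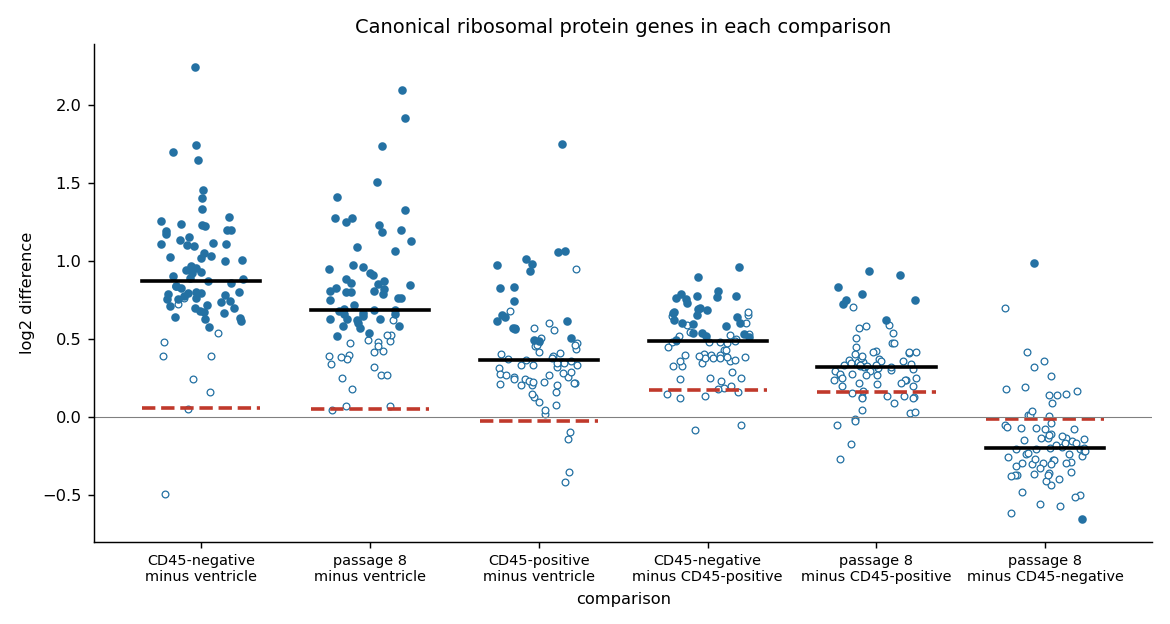
Log2 difference of each of the 77 canonical genes in the 6 comparisons, with filled points for adjusted p under 0.05 (limma) and open points for the others. Black bars are the median of the 77 genes and dashed red bars the median of all genes tested; the black bar stands above the red one in every comparison except passage-8 minus CD45-negative cells.

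The stalk is the flexible arm of the large subunit that recruits elongation factors, made of Rplp0 at its base and of Rplp1 and Rplp2. Rplp0 had levels of 8.69 and 8.70 in passage-8 cells, 9.28 and 8.86 in CD45-negative cells, 8.35 and 8.25 in CD45-positive cells, against 8.45 and 8.10 in ventricle. The ventricle pair spanned the CD45-positive pair, and all 3 stalk genes were called higher in CD45-negative cells than in ventricle, by 0.79 (SE 0.22, adjusted p = 0.0216), 0.72 (SE 0.22, adjusted p = 0.0305) and 0.70 (SE 0.16, adjusted p = 0.012) on the log2 scale. None of the 3 was called in the other cell groups against ventricle (limma; 0 had an unadjusted p under 0.05), with differences of 0.40 to 0.52 in passage-8 cells and 0.02 to 0.22 in CD45-positive cells, although all 3 were called in passage-8 cells with quantile normalization and the authors' table. All 3 calls in CD45-negative cells ended with normexp background, at adjusted p between 0.0506 and 0.134, and when only the 4 arrays compared were fitted, at 0.129 to 0.159. Without CD45-negative replicate 1 Rplp0 and Rplp1 had adjusted p = 0.0502 and 0.0738, and without ventricle replicate 2 0.0956 and 0.127.

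In the small subunit, 21 of 31 genes were called higher in passage-8 cells than in ventricle, against 27 for CD45-negative and 9 for CD45-positive cells. None was called lower (limma), and 22, 27 and 12 had an unadjusted p under 0.05 in either direction. Among all genes 27.3%, 28% and 24.2% were called higher in the same order, so the CD45-positive count was near that share. Rps26, which lines the mRNA exit channel, had levels of 7.64 and 7.69 in passage-8 cells, 7.66 and 7.59 in CD45-negative cells, 6.99 and 6.89 in CD45-positive cells, against 6.08 and 5.78 in ventricle. No cell group overlapped the ventricle pair, and the differences were 1.74 (SE 0.18, adjusted p = 0.000549), 1.70 (SE 0.18, adjusted p = 0.000479) and 1.01 (SE 0.18, adjusted p = 0.00452). Rps27a, made as a fusion with ubiquitin that is then split off, had levels of 8.15 and 8.16 in passage-8 cells, 8.54 and 8.29 in CD45-negative cells, 8.04 and 8.00 in CD45-positive cells, against 6.99 and 6.92 in ventricle. Its 3 cell groups lay closer to each other than to ventricle, with differences from it of 1.20 (adjusted p = 0.00183), 1.45 (adjusted p = 0.000689) and 1.06 (adjusted p = 0.00288).

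At the other end, Rps24 changed least of the 77 genes. It had levels of 8.30 and 8.37 in passage-8 cells, 8.66 and 8.24 in CD45-negative cells, 8.20 and 8.19 in CD45-positive cells, against 8.20 and 8.38 in ventricle, a range of group means of 0.25. The groups overlapped, and no comparison called it. Rps29 had a range of group means of 0.39 and was not called against ventricle either.

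In the large subunit, 33 of 43 genes were called higher in passage-8 cells than in ventricle, against 37 for CD45-negative and 10 for CD45-positive cells. None was called lower (limma), and 35, 41 and 17 had an unadjusted p under 0.05 in either direction. The shares of all genes called higher were again 27.3%, 28% and 24.2%, with the CD45-positive count near its share. Rpl3, which reaches towards the peptidyl transferase centre, moved most. Its levels were 7.55 and 7.54 in passage-8 cells, 7.76 and 7.63 in CD45-negative cells, 7.23 and 7.17 in CD45-positive cells, against 5.42 and 5.48 in ventricle. The differences from ventricle were 2.09 (SE 0.16, 4.27-fold, adjusted p = 0.000184), 2.24 (SE 0.16, 4.74-fold, adjusted p = 0.000117) and 1.75 (SE 0.16, 3.36-fold, adjusted p = 0.000327), and each call held under every alternative tried. The second Rpl3 probe, the one printed above, had levels of 7.09 and 7.08, 7.19 and 6.96, 6.64 and 6.64, and 4.76 and 4.92 in the same order of groups, with differences of 2.24, 2.23 and 1.80 from ventricle in a fit over all probes.

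Rpl12, a base of the stalk, and Rpl36a, a small protein near the exit site for tRNA, followed. Rpl12 had levels of 8.01 and 8.01 in passage-8 cells, 8.42 and 8.06 in CD45-negative cells, 7.45 and 7.42 in CD45-positive cells, against 6.55 and 6.45 in ventricle, differing from ventricle by 1.51, 1.74 and 0.93 (adjusted p = 0.00107, 0.000489 and 0.00701). Rpl36a had levels of 6.97 and 7.04 in passage-8 cells, 6.95 and 6.52 in CD45-negative cells, 6.04 and 6.09 in CD45-positive cells, against 5.22 and 4.96 in ventricle, differing from ventricle by 1.91, 1.65 and 0.98 (adjusted p = 0.000675, 0.000996 and 0.00946). Both separated the cells from ventricle with no overlap. Rpl36, a different large-subunit protein, had levels of 7.72 and 7.76, 7.94 and 7.50, 7.36 and 7.29, and 7.71 and 7.63 in the same order, and was called in no comparison.

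**Figure D3:**
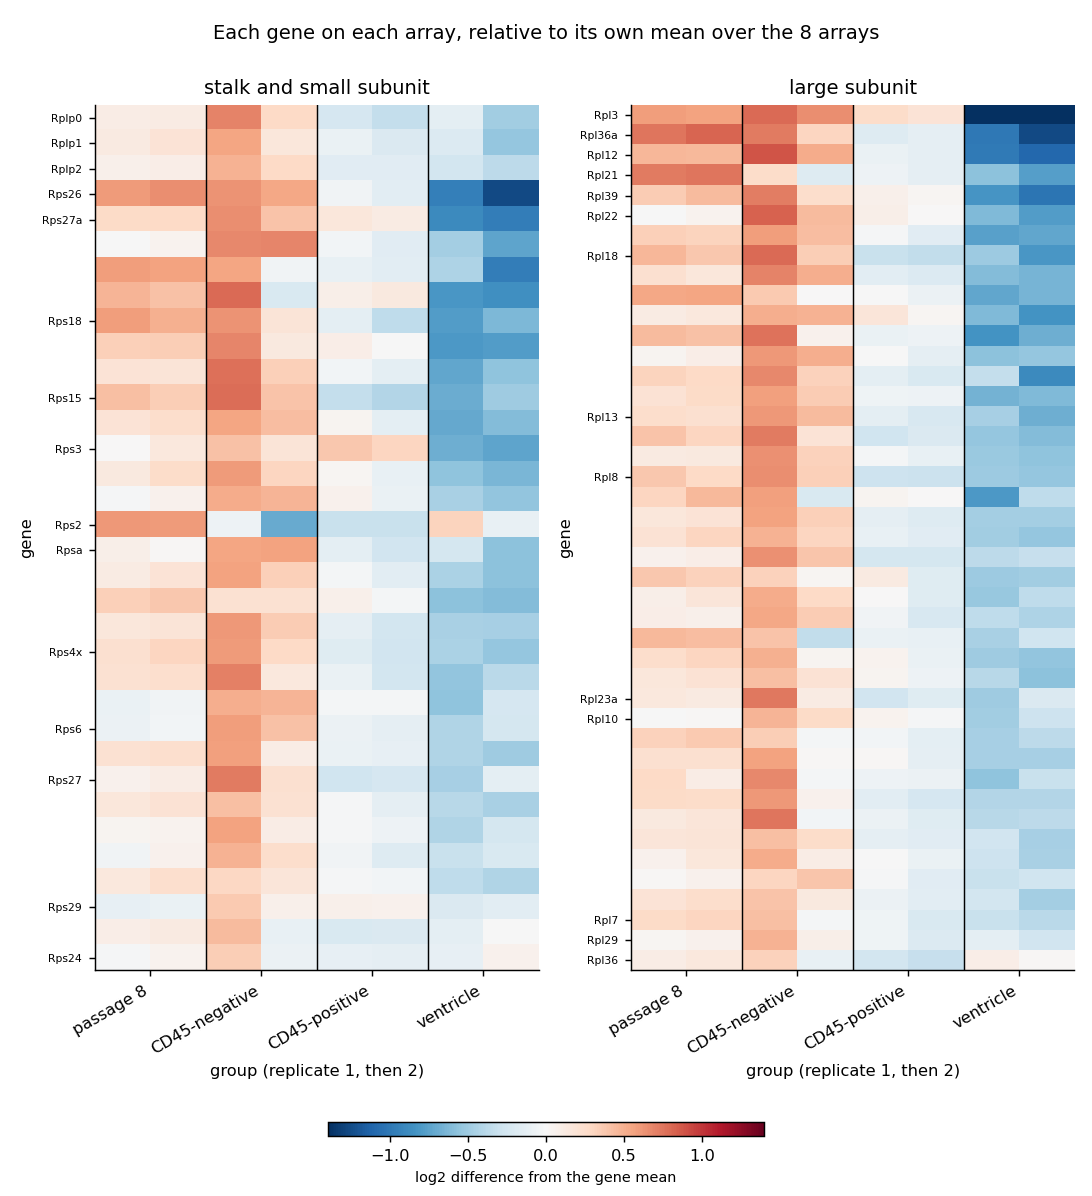
Each canonical gene (rows) on each array (columns, replicate 1 then 2 within a group), as the log2 difference from that gene's mean over the 8 arrays, with red above and blue below it. Rpl3 and Rps26 are darkest in ventricle, CD45-negative replicate 1 is redder than replicate 2 for most genes, and the rows of Rps24 and Rpl36 at the foot are pale. Only some of the rows carry a gene name.

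The 3 cell groups were then compared with each other. Between CD45-negative and CD45-positive cells, 32 of 90 tested members were called higher and 0 lower (limma; 49 had an unadjusted p under 0.05 in either direction), where 19.4% of all genes were called higher and 14.8% lower. Only the paralogue Rps4y2 passed the fold minimum as well (12.5% and 11.7% of all genes higher and lower). The median difference was 0.50, against 0.17 over all genes. The 4 highest were Rps15, which reaches into the decoding region, at 0.96 (SE 0.19, adjusted p = 0.0117), Rpl18 at 0.90 (SE 0.21, adjusted p = 0.0209), Rpl12 at 0.81 (SE 0.18, adjusted p = 0.017) and Rpl8 at 0.79 (SE 0.17, adjusted p = 0.0161). Each of these 4 calls ended when either CD45-positive array was left out and when only the 4 arrays compared were fitted.

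The share of all genes called at adjusted p alone was not computed for the settings below. The count of 32 depended on the setting. It was 6 with quantile normalization, 4 with normexp background, 5 with the authors' table, 3 with no filter, 17 with the mean of all probes, 16 with a replicate block and 1 when only the 4 arrays compared were fitted. It was also 1 without CD45-positive replicate 1 or replicate 2, 26 without CD45-negative replicate 1 and 67 without replicate 2. The median difference was 0.14 with quantile normalization and 0.11 with the authors' table, against 0.07 and 0.08 over all genes, so the excess over all genes was small there. CD45-negative replicate 2, with the lower levels of the pair (median difference of -0.36 from replicate 1 over 89 members), is also the array with 49.4 against 4.49 in macrophage signal, and the part of this in the result was not tested.

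Between passage-8 and CD45-positive cells, from which they descend, 10 of 90 members were called higher and 2 lower, where 19% of all genes were called higher and 14.1% lower, so the share was under the background. When only the 4 arrays compared were fitted, 51 of 90 were called higher and 3 lower. The share of all genes called by this rule in that fit was not computed, so the 51 cannot be set against a background. With the fold minimum, that fit gave 0 members higher and 2 lower, where 3802 and 3011 of 23439 genes passed. With all 8 arrays fitted, the 2 called lower, Rpl39l and Rps4y2, also passed the fold minimum, as 11.5% of all genes did. No member passed it higher (13.8% of all genes). The median was 0.32, against 0.16 over all genes. The highest canonical genes were Rpl36a at 0.93 (adjusted p = 0.0173), Rps2 at 0.91 (adjusted p = 0.0408), Rpl21 at 0.84 (adjusted p = 0.0231) and Rps18 at 0.79 (adjusted p = 0.0329). None of these calls, nor any other of the 10, held when any 1 of the 4 arrays was left out.

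Between passage-8 and CD45-negative cells, 1 of 89 members was called higher and 2 lower, where 11.3% of all genes were called in each direction, and only Rps4y2 passed the fold minimum, lower (8.73% and 8.12% of all genes higher and lower). The median was -0.20, against -0.01 over all genes, but it was 0.06 with quantile normalization and 0.14 with the authors' table, so its direction is not settled. Without CD45-negative replicate 1, 7 members were called higher and 3 lower, and without replicate 2, 0 and 16 (limma; 47 had an unadjusted p under 0.05). Rps2, a core protein of the small subunit, was higher in passage-8 cells by 0.99 (SE 0.26, adjusted p = 0.0402), and lost the call without either passage-8 array. Its other probe, described below, gave a smaller difference between these 2 groups.

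The paralogues departed furthest from the other members. Rpl3l, the form of Rpl3 known from striated muscle, was well above background only in ventricle, with levels of 5.39 and 4.70 there, against -7.58 and -7.14 in passage-8 cells, -6.66 and -5.84 in CD45-negative cells and -7.69 and -6.84 in CD45-positive cells. It was at least 1538-fold lower in passage-8 cells (adjusted p = 2.31e-05), at least 628-fold lower in CD45-negative cells (adjusted p = 2.15e-05) and at least 1337-fold lower in CD45-positive cells (adjusted p = 2.44e-05). For each bound, a dim array entered at its lowest signal among probes well above background, or at the Rpl3l signal itself where that was higher. A higher limit of detection would give smaller folds. Each adjusted p, here and for the bounds of Rpl39l below, is from the fit to the levels and not from the bound. In these comparisons Rpl3l and Rpl39l met the condition for testing through the brighter group alone, so the p-values add no support to the bounds. Rpl3 and Rpl3l thus ran in opposite directions between cells and ventricle. All 14 cardiomyocyte genes also passed lower in each of the 3 cell groups, and their part in the result was not tested.

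Rps4y2, which RefSeq lists as Rps4l, lies on chromosome 6 (148304043 to 148304102 in mm9) and is a paralogue of Rps4x. Its levels were -1.89 and -1.64 in passage-8 cells, 3.72 and 3.29 in CD45-negative cells, 1.80 and 1.77 in CD45-positive cells, against 1.58 and 1.64 in ventricle. Passage-8 cells were lowest, with log2 differences of -5.27 from CD45-negative cells (SE 0.21, adjusted p = 0.000134), -3.56 from CD45-positive cells (adjusted p = 0.000197) and -3.38 from ventricle (adjusted p = 9.22e-05). CD45-negative cells exceeded CD45-positive cells by 1.72 (adjusted p = 0.00205) and ventricle by 1.89 (adjusted p = 0.000556). All 5 calls held under every alternative tried. Its parent Rps4x had levels of 6.93 and 7.00 in passage-8 cells, 7.30 and 6.98 in CD45-negative cells, 6.54 and 6.44 in CD45-positive cells, against 6.26 and 6.16 in ventricle.

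Rpl39l, a paralogue of Rpl39 known from the testis, had levels of -7.74 and -7.38 in passage-8 cells, -2.13 and -4.11 in CD45-negative cells, -1.89 and -2.01 in CD45-positive cells, against -3.75 and -4.03 in ventricle. On both passage-8 arrays and on CD45-negative replicate 2 it did not rise well above background. It was at least 12.1-fold lower in passage-8 than in CD45-positive cells (adjusted p = 0.00124) and at least 3.15-fold lower than in ventricle (adjusted p = 0.00313). In CD45-positive cells it was higher than in ventricle by 1.94 (SE 0.60, adjusted p = 0.0363), a call that ended when any 1 of the 4 arrays was left out. Rpl39 itself had levels of 7.07 and 7.16 in passage-8 cells, 7.43 and 6.96 in CD45-negative cells, 6.78 and 6.74 in CD45-positive cells, against 5.89 and 5.69 in ventricle.

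The remaining paralogues moved with the canonical genes or did not pass. Rpl22l1, a paralogue of the RNA-binding protein Rpl22, was higher than in ventricle by 1.44 in passage-8 cells (adjusted p = 0.00123) and 1.17 in CD45-negative cells (adjusted p = 0.00238), with levels of 6.53 and 6.62, 6.47 and 6.13, 5.81 and 5.73, and 5.18 and 5.10 in passage-8, CD45-negative, CD45-positive cells and ventricle. Rps27l, known as a target of p53, was higher by 1.50 in CD45-negative cells (SE 0.37, adjusted p = 0.0155), but not without CD45-negative replicate 1 (adjusted p = 0.057) or ventricle replicate 2 (adjusted p = 0.078). Rpl36al was called higher in CD45-negative cells by 0.96 (adjusted p = 0.0109), and Rpl7l1, with levels between -0.81 and -0.11, was called nowhere. Rpl10l was well above background on 1 array, CD45-negative replicate 2, at -0.18, and was not tested.

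**Figure D4:**
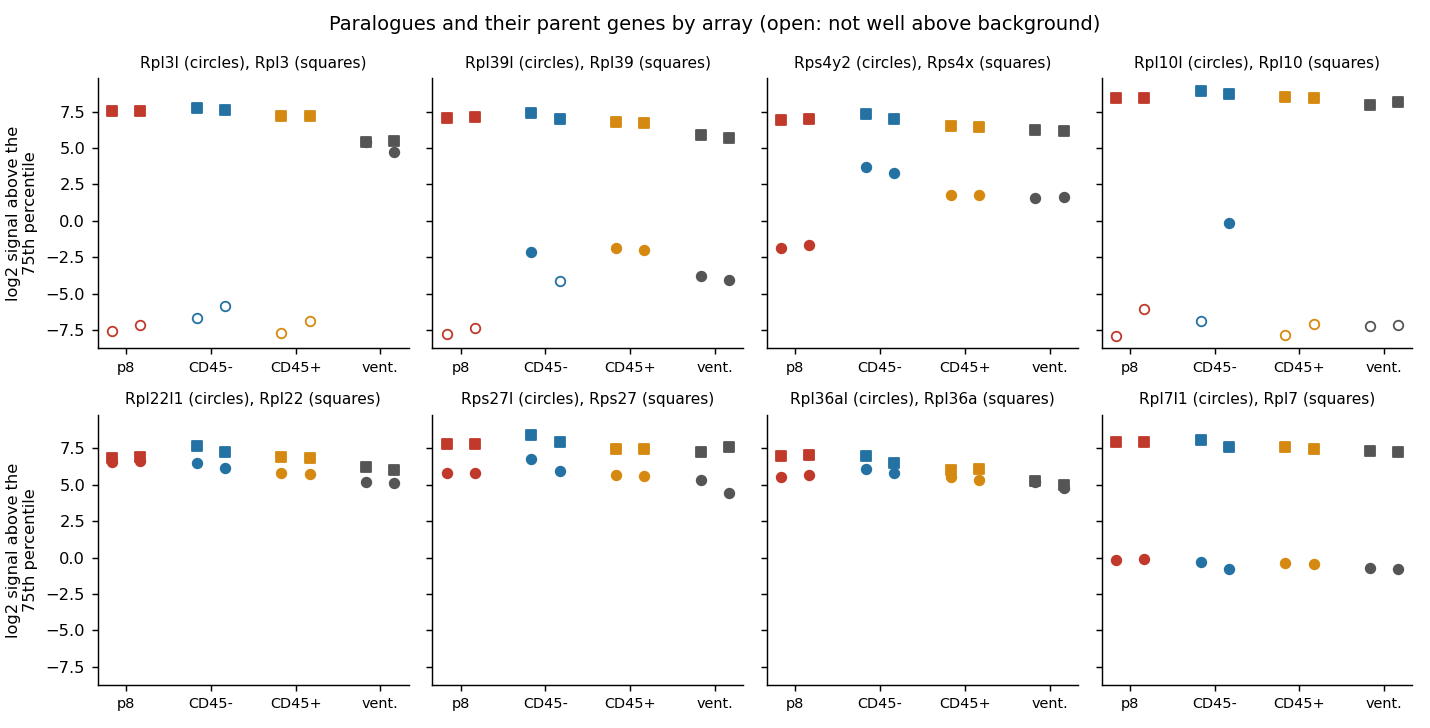
Levels of the 8 paralogues (circles) and of their parent genes (squares) on each array, in log2 units above the array's 75th percentile, with open symbols where the probe was not well above background. Rpl3l is filled in ventricle alone, and Rps4y2 lies below 0 in passage-8 cells and above 0 in the other groups.

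The 6 names of pseudogenes are uncertain, since their probes can take up the message of the parent gene; the Rpl17-ps1 probe shares a run of 30 bases with a Rpl17 probe. All 6 had positive differences from ventricle in all 3 cell groups, and 3 passed in passage-8 cells, 3 in CD45-negative cells and 1 in CD45-positive cells. Among all genes 20.8%, 20.7% and 18.7% passed higher in the same order. Rps19-ps6 had levels of 6.35 and 6.31 in passage-8 cells, 7.08 and 6.71 in CD45-negative cells, 5.97 and 5.83 in CD45-positive cells, against 5.06 and 4.94 in ventricle. Rps19bp1, with levels of 1.34 to 2.09, was called in no comparison.

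Several genes gave another answer on another probe. Of the 92 members 59 have several probes, and 11 of 190 probes with a coordinate lie on another chromosome than their gene, for Rps27, Rps29, Rpl13, Rpl36 and Rps4x. Rps2 has a brighter probe at chr17:24857583-24857642 with levels of 7.79 and 7.78 in passage-8 cells, 7.12 and 6.48 in CD45-negative cells, 6.88 and 6.87 in CD45-positive cells, against 7.50 and 7.09 in ventricle. Its other probe, at chr17:42864841-42864900, had levels of 7.58 and 7.55, 6.97 and 7.54, 6.65 and 6.65, and 6.18 and 5.74 in the same order. This other probe lies far from the brighter one on the same chromosome, and whether it reads the Rps2 gene itself was not checked. In CD45-negative cells against ventricle the brighter probe gave -0.49 (adjusted p = 0.164) and the other 1.30 (adjusted p = 0.00629) in the fit over all probes. No direction is thus given for Rps2 against ventricle.

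In a fit over all probes rather than genes, 129 of 194 member probes were called higher and 4 lower in passage-8 cells against ventricle, where 26.6% and 22.2% of all probes were. For CD45-negative cells against ventricle the counts were 142 and 1 of 192 (26.2% and 25.5%), and for CD45-positive cells 54 and 2 of 192 (22.9% and 24.9%). Between cell groups they were 41 and 1 of 191 in CD45-negative against CD45-positive cells (18% and 15.2%), 27 and 3 of 193 in passage-8 against CD45-positive cells (18.7% and 12.7%), and 6 and 4 of 192 in passage-8 against CD45-negative cells (12.8% and 10.1%). Only CD45-negative and passage-8 cells against ventricle had most of the member probes called higher.

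Probes of 3 genes were called in opposite directions, and those of Rps3 and Rpl21 are described here. For Rps3 in CD45-negative against CD45-positive cells, the dimmest probe fell by 1.01 (adjusted p = 0.0111) while another rose by 0.74 (adjusted p = 0.0445), and the same held in passage-8 cells, with -1.64 and 0.78. For Rpl21 in CD45-positive cells against ventricle, the 2 dim probes gave -1.64 and 1.32 (adjusted p = 0.00768 and 0.00919), and the bright one 0.57. Over 57 canonical genes with several probes tested, the dimmest probe had the higher difference in 43 in passage-8 cells against ventricle and in 27 in CD45-negative cells.

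The 2 Rps24 probes printed above also parted, a contrast singled out after its values were seen. The coding probe had levels of 6.84 and 6.90 in passage-8 cells, 6.96 and 6.39 in CD45-negative cells, 6.50 and 6.55 in CD45-positive cells, against 6.39 and 6.36 in ventricle. The variant probe had 6.60 and 6.70 in passage-8 cells, 8.31 and 7.46 in CD45-negative cells, 7.41 and 7.39 in CD45-positive cells, against 7.95 and 7.91 in ventricle. Passage-8 cells were thus lowest on the variant probe, with no overlap. The differences were -1.23 from CD45-negative cells (SE 0.29, adjusted p = 0.0275) and -1.28 from ventricle (SE 0.29, adjusted p = 0.0125). The coding probe gave 0.19 and 0.49 there (adjusted p = 0.582 and 0.125), and the difference between probes was not tested. The call against ventricle ended when any 1 of the 4 arrays was left out, at adjusted p up to 0.0731, and that against CD45-negative cells without passage-8 replicate 1 or 2 (adjusted p = 0.135 and 0.136).

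**Figure D5:**
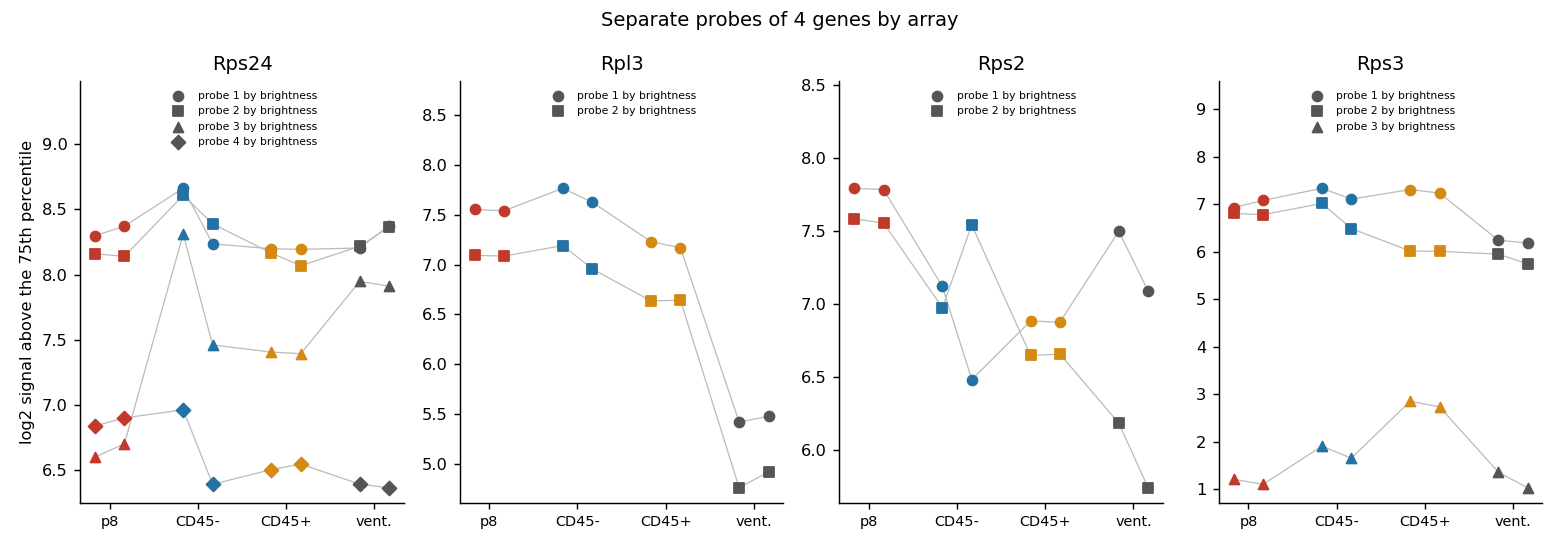
Levels of each probe of Rps24, Rpl3, Rps2 and Rps3 on each array, in log2 units above the array's 75th percentile, with grey lines joining the points of 1 probe and probes numbered by brightness. The 2 Rpl3 probes run in parallel, the third Rps24 probe by brightness is lowest in passage-8 cells, the 2 Rps2 probes part in ventricle, and the dimmest Rps3 probe is highest in CD45-positive cells.

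In the 3 comparisons with ventricle, canonical genes with the counted pyrimidine start had medians a little below those of the genes without it. The median difference in passage-8 cells was 0.66 over the 13 genes with it and 0.80 over the 44 without it. The same medians were 0.83 and 0.96 for CD45-negative cells, and 0.36 and 0.45 for CD45-positive cells. In CD45-negative against CD45-positive cells the medians were 0.54 with it and 0.51 without it, and the ranges overlapped in each of the 6 comparisons. Among the 4 genes whose starts are printed, Rps6, the target of the S6 kinases, differed from ventricle by 0.83 in CD45-negative cells (adjusted p = 0.00657) and by 0.27 in passage-8 cells (adjusted p = 0.226).

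Other parts of the protein synthesis machinery were read from lists of known members. Of 3 ribosomal proteins named otherwise on the array, Fau and Gnb2l1 passed in CD45-negative cells against ventricle at 1.22 and 1.11 (adjusted p = 0.00165 and 0.00173), and Fau also in passage-8 cells at 1.24 (adjusted p = 0.00188). Of the ribosome assembly factors, 23 of 69 passed higher and 0 lower in passage-8 cells against ventricle (limma; 44 had an unadjusted p under 0.05), 10 and 1 of 68 in CD45-negative cells, and 3 and 2 of 68 in CD45-positive cells. Among all genes 20.8%, 20.7% and 18.7% passed higher in these comparisons and 19.5%, 20% and 20.6% lower. By this rule the assembly factors were above the share for higher genes in passage-8 cells and under it in the other groups. At adjusted p alone 38 were called higher and 2 lower in passage-8 cells. The counts were 27 and 10 in CD45-negative cells, and 11 and 4 in CD45-positive cells. Among all genes 27.3%, 28% and 24.2% were called higher, so CD45-negative cells then lay above the share as well. Nop58, a core protein of the particles that methylate ribosomal RNA, was higher than in ventricle by 1.93 in passage-8 cells (adjusted p = 0.000228) and 1.73 in CD45-negative cells (adjusted p = 0.000271). In passage-8 against CD45-positive cells 13 of 69 assembly factors passed higher and 0 lower (limma; 40 had an unadjusted p under 0.05), led by Dkc1, the pseudouridine synthase of ribosomal RNA, at 1.72 (adjusted p = 0.00124), where 13.8% of all genes passed higher.

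Of 17 genes of RNA polymerase I and its factors, 5 passed higher and 1 lower in passage-8 cells against ventricle, 3 and 2 in CD45-negative cells, and 1 and 2 in CD45-positive cells. Of 41 initiation factors, 6 passed higher and 6 lower in passage-8 cells, 8 and 3 in CD45-negative cells, and 4 and 3 in CD45-positive cells. Among 12 mTORC1 and TOP regulator genes, 1 passed higher in passage-8 cells against ventricle, 1 passed lower in CD45-negative cells, and none passed in CD45-positive cells, where 1 had an unadjusted p under 0.05. Against the shares of all genes given above, the 5 of 17 lay somewhat over the 20.8% of passage-8 cells, and the other counts of these 3 lists were near or under the share of their comparison.

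Among 12 elongation and release factors, the 2 forms of elongation factor 1 alpha changed in opposite directions, as the Rpl3 pair did. Eef1a1 had levels of 7.83 and 7.93 in passage-8 cells, 8.52 and 8.42 in CD45-negative cells, 7.88 and 7.76 in CD45-positive cells, against 6.02 and 6.66 in ventricle, with differences from ventricle of 1.54, 2.13 and 1.48 (adjusted p = 0.00275, 0.000632 and 0.00328). Eef1a2, the form of muscle and neurons, had -6.96 and -5.25, -5.72 and -4.12, -1.03 and -0.69, and 4.98 and 5.08 in the same order. It was not well above background in passage-8 and CD45-negative cells, and it was 59.3-fold lower in CD45-positive cells than in ventricle (log2 -5.89, adjusted p = 0.000873).

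The genes outside the members whose levels followed the canonical mean most closely over the 8 arrays, of 17885 compared, were mostly unnamed probes. The named ones were Gm14407, a predicted gene, with a Pearson correlation of 0.997, and Txndc11, a thioredoxin-domain protein, with 0.995. With 8 arrays in 4 groups, these values describe the order of the groups and share each array's scaling.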

How the data were processed

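Per the file headers, each array holds the intensity of 62976 spots from Agilent Feature Extraction (version 10.7, per the submitters' processing notes); the processed signal was corrected by spatial and multiplicative detrending within the array and not scaled between arrays. The authors' deposited value table, on a log2 scale and with a normalization not given in the sources used here, ranked the spots of each array as the scanner signal did (Spearman 0.997 to 0.999). Per the labels, 200 ng of RNA was labelled.

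Of the spots, 3671 controls and 167 to 248 outlier spots per array were left out, and none was saturated; between 51.5% and 69.9% of spots per array were well above background. The number of arrays limits the precision. Repeated spots were averaged, and the brightest probe on average stood for a gene. The log2 processed signal, less its 75th percentile on that array, is the level used. All 8 arrays were fitted with limma 3.58.1 in R 4.3.3 (lmFit, eBayes), with 1 mean per group, 4 residual degrees of freedom and a spread pooled over groups. Testing required signals well above background on the 2 arrays of 1 or both compared groups. Adjusted p-values are Benjamini-Hochberg over all genes of a comparison. All tests are two-sided. With 2 arrays against 2, exact permutation gives no p below 0.333, so none is printed.

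Whether the 2 replicates of a group are separate cultures or animals is not in the labels; p-values may thus measure technical spread. Samples were not paired by replicate number. Deviations of the replicates correlated weakly between groups (correlations from -0.196 to 0.193 over 17974 genes), which cannot exclude shared animals or cultures. Members and lists were chosen with earlier results of these data known. Named with values were the stalk genes, the paralogues with their parents, the 4 highest and lowest canonical genes per comparison, the 5 with the largest and 3 with the smallest range of group means, genes whose probes disagreed, and up to 4 passing genes per list, direction and comparison; some of these are not reported here. The fit was tested on simulated data, where most changes of 1 or less on the log2 scale were not called. In that simulation 50 of 22236 genes tested were changed at each size. In the data, 11714 of 22277 genes were called for the same comparison, CD45-negative cells against ventricle. The adjustment was thus stricter in the simulation, and its recovery does not describe the calls made here. Alternatives were quantile normalization, normexp background (offset 50), the authors' table, 2 other filters, the mean of all probes, no fold minimum, only the compared arrays, a replicate block and leaving out each array. Applying these to the Rps24 variant probe was chosen after seeing the data. Coordinates of probes are the files' (mm9); start sites come from RefSeq (GRCm38.p6). Protein sequences were not used here.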

Additional observations from a re-analysis of the deposited data

How the results depend on the processing

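Counts here are members that passed, in either direction, at adjusted p under 0.05 and the fold minimum. They were 35 in CD45-negative cells against ventricle, 7 in CD45-positive cells against ventricle, 22 in passage-8 cells against ventricle, 1 in CD45-negative against CD45-positive cells, 2 in passage-8 against CD45-positive cells and 1 in passage-8 against CD45-negative cells. Leaving out 1 array gave 21 to 58, 4 to 7, 17 to 22, 1 to 8, 2 and 1 to 4. With no fold minimum they were 76, 25, 63, 32, 12 and 3. With quantile normalization and with the authors' table, CD45-negative cells against ventricle gave 17 and 19, and passage-8 against CD45-negative cells gave 2 in both. The authors' table also gave 11 for CD45-positive and 35 for passage-8 cells against ventricle. The mean of all probes gave 36 for passage-8 cells against ventricle and 4 against CD45-positive cells. Passage-8 against CD45-negative cells gave 2 with normexp background and 2 with no filter, and passage-8 against CD45-positive cells gave 1 when genes had to be well above background on all 8 arrays.

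In the same order the medians were 0.89, 0.38, 0.68, 0.50, 0.32 and -0.20, with ranges over the left-out arrays of 0.74 to 1.07, 0.36 to 0.44, 0.66 to 0.72, 0.36 to 0.66, 0.29 to 0.34 and -0.38 to -0.032. Quantile normalization gave 0.67, 0.49, 0.72, 0.14, 0.21 and 0.058, and the authors' values gave 0.70, 0.58, 0.86, 0.11, 0.27 and 0.14, so that only passage-8 against CD45-negative cells turned direction. Normexp background gave 0.42 for CD45-positive and 0.72 for passage-8 cells against ventricle, and -0.0084 for passage-8 against CD45-negative cells. It moved the median of all genes by over 0.1 in 4 comparisons, to 0.33 in CD45-negative against CD45-positive cells, -0.25 in passage-8 against CD45-negative cells, 0.23 in CD45-negative cells against ventricle and -0.12 in passage-8 cells against ventricle. The mean of all probes gave 0.43 for CD45-positive and 0.84 for passage-8 cells against ventricle, and 0.38 for passage-8 against CD45-positive cells. The cause of these shifts was not tested.

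The fit did not pair samples by replicate number, and whether the numbers mark shared animals or cultures is not known. With a replicate block the counts that passed were 35, 7, 21, 1, 2 and 1, in the order above. Members called higher at adjusted p alone were 71, 18, 49, 16, 7 and 1, and the share of all genes so called was not computed. Of 104 differences of named genes and the Rps24 variant probe, 1235 values under an alternative were computed. Of these 1082 kept their side of the threshold, 124 lost the call, in 24 differences, and 29 gained one, in 14 differences. No called difference changed sign, while 29 values of 14 differences that were not called did.

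With 2 arrays a group and 4 residual degrees of freedom, differences near 0.5 on the log2 scale were called for some genes and not for others, and a missed threshold does not show that 2 groups are alike. Probes not well above background, such as Rpl3l in the cells, have only a bound.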
